A study of Homo sapiens with 6 samples.

Results

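Adriamycin and etoposide, both poisons of topoisomerase II, were compared by RNA-Seq in U2OS cells, a human osteosarcoma line. The comparison covered the 220 genes whose counts were analysed in all 4 libraries of the drugs, of the 67140 genes of the whole list. These genes lie at the start of chromosome 1, between bases 12010 and 4594016 of GRCh38. Cells were treated for 4 h with 1.5 μg/ml adriamycin or with 100 μM etoposide, and control cells received no treatment. The labels give the genotype of all cells as WT, and each group held 2 libraries. The drugs were given at doses in different units and at 1 time, so the drug and its dose cannot be told apart.

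Topoisomerase II cuts both strands of DNA, passes another duplex through the break and seals it again. Both drugs trap the enzyme on the cut DNA. Adriamycin (doxorubicin) is an anthracycline whose flat ring system slides between base pairs, and it can evict histones. Etoposide is a podophyllotoxin derivative that acts on the enzyme without intercalating into DNA. The comparison asks how gene expression differs between a drug that intercalates and one that does not.

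The etoposide libraries held 21450766 and 14244235 counts over the whole list, of which 0.433% and 0.430% fell on the 220 genes. Over these genes the libraries held 92794 and 61317 counts with etoposide, 79753 and 59357 with adriamycin, and 89343 and 63941 in control cells. Of the 220 genes, 46 had no count in any library, and another 80 had too few counts to test, with at most 16 in a drug library. The remaining 94 genes were tested, of which 55 are coding genes, 26 lncRNA (long noncoding RNA) genes and 13 pseudogenes. No marker gene of a cell type that was looked up lies among the 220 genes. In the etoposide libraries the bone and mesenchymal genes COL1A1, SPARC and VIM had 74285 and 51627, 24734 and 15855, and 18341 and 11198 counts. RUNX2, ALPL and SPP1 had 101 and 69, 215 and 131, and 38 and 23, and COL1A2 had only 5 and 2. The labels call the cells epithelial. Of the epithelial markers, the keratin genes KRT8 and KRT18 had 20129 and 12074, and 4945 and 3048 counts. EPCAM and CDH1 had 293 and 169, and 30 and 20. The blood cell marker PTPRC had 6 in each library.

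Some of the tested genes, whether or not the drugs differed on them, start back to back with another gene, on opposite strands and within 1000 bases of it. Whether the drugs differed more often on such genes was not tested. Such a divergent pair shares its promoter region. The sequence between the first bases of the paired genes is shown for 5 pairs to which the results return, read from the GRCh38 genome on the plus strand. Capitals mark the CCAAT box or its reverse complement, a sequence that the factor NF-Y can bind.
INTS11 and CPTP, chr1:1324688-1324755: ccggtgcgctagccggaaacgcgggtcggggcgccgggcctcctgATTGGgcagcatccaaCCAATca
CCNL2 and MRPL20-AS1, chr1:1399336-1399514: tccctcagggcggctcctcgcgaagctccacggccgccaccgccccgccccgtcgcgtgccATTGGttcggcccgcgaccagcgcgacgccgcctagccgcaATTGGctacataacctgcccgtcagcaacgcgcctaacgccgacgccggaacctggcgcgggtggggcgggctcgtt
SDF4 and B3GALT6, chr1:1232032-1232236: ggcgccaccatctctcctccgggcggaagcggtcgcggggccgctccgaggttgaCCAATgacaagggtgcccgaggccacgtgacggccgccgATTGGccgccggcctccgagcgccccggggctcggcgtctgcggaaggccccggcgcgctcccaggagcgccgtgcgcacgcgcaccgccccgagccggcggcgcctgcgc
MORN1 and RER1, chr1:2391708-2391774: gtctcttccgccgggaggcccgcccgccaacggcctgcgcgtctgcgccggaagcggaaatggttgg
C1orf174 and LINC01134, chr1:3900294-3900346: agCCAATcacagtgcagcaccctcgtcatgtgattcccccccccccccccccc
These stretches hold 2, 2, 2, 0 and 1 CCAAT boxes and 8, 29, 35, 10 and 1 CG steps (a C followed by a G), in the order shown.

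With adriamycin, 10 genes were over 2-fold lower and 2 genes were over 2-fold higher than with etoposide. The lower genes were the lncRNA genes LINC01409, MRPL20-DT, LINC01134, ENSG00000268575 and MRPL20-AS1, the pseudogene ENSG00000269896 and the coding genes TNFRSF14, CPTP, TPRG1L and MORN1. The higher genes were PRDM16 and C1QTNF12. Counts were tested with edgeR's quasi-likelihood test after TMM scaling, in 1 fit of the 6 libraries. A gene was called at an adjusted p under 0.01 (Benjamini-Hochberg over the 94 genes) and a log2 fold change over 1 in size. The called genes made up 10.6% of the tested genes for lower and 2.13% for higher ones. At the same adjusted p with no limit on the fold change, 23 genes passed the test as lower (24.5%) and 20 as higher (21.3%). Normalized counts in what follows are counts divided by the TMM-scaled library size relative to the mean of the 6 libraries. In such bulk samples, fewer cells that express a gene and less of its RNA per cell cannot be told apart.

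**Figure D1:**
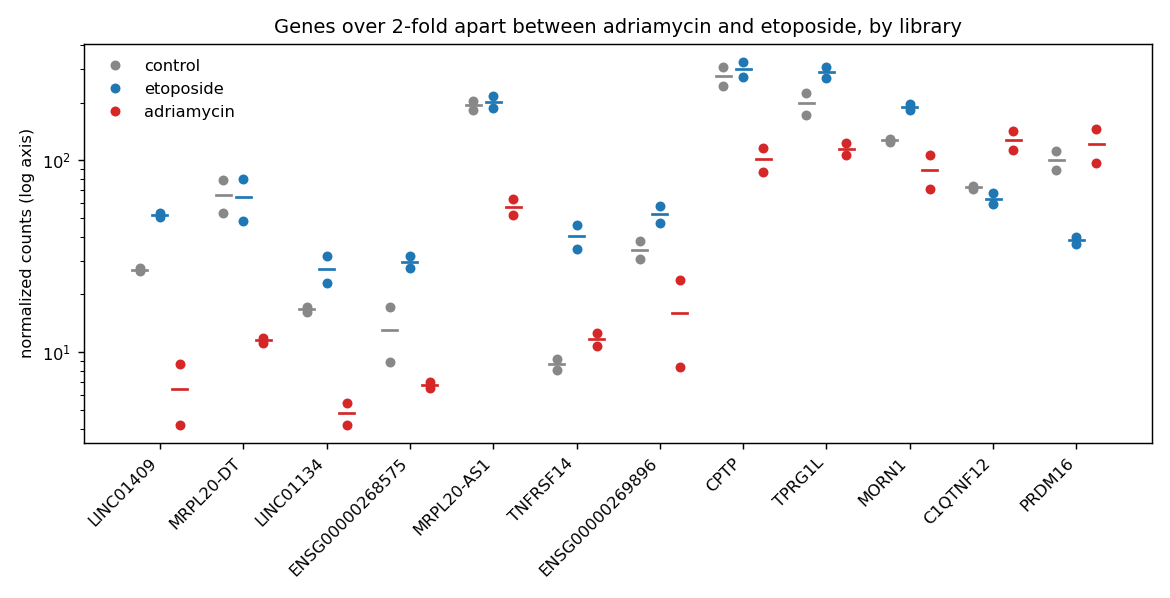
Normalized counts on a log axis of the 12 called genes in each library, with points for the 2 libraries of each group and a line at their mean. The points of the drugs are apart for all 12 genes, and adriamycin is the lower one for the 10 genes from LINC01409 to MORN1.

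CPTP (ENSG00000224051, bases 1324756 to 1328896) encodes a carrier protein for ceramide-1-phosphate, a signalling lipid. It had 326 and 271 normalized counts with etoposide and 116 and 86.6 with adriamycin, and control cells had 306 and 245. The adriamycin libraries lay apart below all others, and a control library lay between the etoposide libraries. On the log2 scale adriamycin differed from etoposide by −1.55 ± 0.17 (± standard error, as in all that follows; edgeR adjusted p = 2.93e-14), so CPTP was 2.93-fold lower with adriamycin.

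TPRG1L (ENSG00000158109, bases 3625015 to 3630127), which encodes a protein of synaptic vesicles, had 308 and 270 normalized counts with etoposide and 123 and 106 with adriamycin. Control cells had 172 and 226, between the drugs. TPRG1L changed by −1.33 ± 0.17 on the log2 scale (edgeR adjusted p = 1.81e-11). MORN1 (ENSG00000116151, bases 2321253 to 2391707) had 183 and 198 normalized counts with etoposide against 107 and 71.2 with adriamycin, and control cells, at 130 and 125, were again between them. For MORN1 the log2 fold change was −1.07 ± 0.20 (edgeR adjusted p = 2.63e-06), and it was −0.81 without adriamycin replicate 2, within the threshold of 1. Exons of MORN1 overlap those of ENSG00000287356 on the other strand. Inside MORN1 and on its strand lies ENSG00000269896 (bases 2350414 to 2352820), which had 47.4 and 57.9 normalized counts with etoposide and 23.8 and 8.38 with adriamycin. The log2 fold change of this pseudogene, −1.62 ± 0.42 (edgeR adjusted p = 0.000474), became −2.58 without adriamycin replicate 1 and −1.11 without adriamycin replicate 2.

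TNFRSF14 (ENSG00000157873, bases 2555639 to 2565382) encodes a receptor of the tumour necrosis factor receptor family. It had 68 and 33 counts with etoposide, or 46.0 and 34.7 normalized counts, and 10 and 9 counts with adriamycin, or 10.8 and 12.6 normalized counts. Control cells, at 8.10 and 9.18, were below both drugs and nearer to adriamycin. TNFRSF14 thus changed by −1.81 ± 0.48 on the log2 scale (edgeR adjusted p = 0.0006), but it did not pass with DESeq2, the study's own test (adjusted p = 0.0222). TNFRSF14 had enough counts to be tested only because of the etoposide libraries, where it was high, so its selection depended on that group. Its exons overlap those of TNFRSF14-AS1 on the other strand, which had at most 3 counts in a library.

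LINC01409 (ENSG00000237491, bases 778747 to 810065) was the gene with the largest difference of the 94. It had 79 and 48 counts with etoposide but 8 and 3 with adriamycin, or 53.5 and 50.5 against 8.65 and 4.19 normalized counts. Control cells had 27.5 and 26.4 normalized counts, so the control libraries lay between the drugs. This was a 7.69-fold difference, or −2.94 ± 0.50 on the log2 scale (edgeR adjusted p = 2.68e-07). Without adriamycin replicate 1 the value was −3.56, and without etoposide replicate 1 it was −2.87 and did not pass (edgeR adjusted p = 0.0119). LINC01134 (ENSG00000236423, bases 3900347 to 3917225) showed the same order, with 23.0 and 31.6 normalized counts with etoposide, 16.2 and 17.2 in control cells, and 5.41 and 4.19 with adriamycin. Its counts with adriamycin were low, 5 and 3, and the log2 fold change was −2.43 ± 0.62 (edgeR adjusted p = 0.000406). With 1 library left out, the value for LINC01134 lay between −2.64 and −2.18, and LINC01134 did not pass under every alternative. ENSG00000268575 (bases 1702736 to 1737688) had 31.8 and 27.4 normalized counts with etoposide and 6.49 and 6.98 with adriamycin, a log2 fold change of −2.13 ± 0.57 (edgeR adjusted p = 0.000673) that did not pass with DESeq2 (adjusted p = 0.0203). Like TNFRSF14, ENSG00000268575 had enough counts to be tested only because of the etoposide libraries, where it was high. Exons of LINC01409 and of ENSG00000268575 overlap other genes on both strands, so that their counts are uncertain, and those of LINC01134 overlap none.

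Around MRPL20, which encodes a protein of the mitochondrial ribosome, both noncoding neighbours were lower while the gene itself was not. MRPL20-DT (ENSG00000272455, bases 1409096 to 1410618) had 79.9 and 48.4 normalized counts with etoposide, 53.5 and 79.2 in control cells, and 11.9 and 11.2 with adriamycin. MRPL20-DT changed by −2.49 ± 0.43 on the log2 scale (edgeR adjusted p = 2.51e-07). MRPL20-AS1 (ENSG00000224870, bases 1399515 to 1402046) had 217 and 188 with etoposide, 203 and 184 in control cells, and 62.7 and 51.7 with adriamycin, a log2 fold change of −1.82 ± 0.21 (edgeR adjusted p = 2.84e-13). For both, adriamycin stood apart from etoposide and control cells, which overlapped each other. MRPL20 had 1197 and 1068 normalized counts with etoposide and 1565 and 1391 with adriamycin, a log2 fold change of 0.38 that became −0.030 when libraries were scaled by their size alone. Exons of MRPL20-AS1 and MRPL20 overlap on opposite strands, and the strand setting of the counting is not given in the sources used here, so reads in the overlap could belong to either.

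PRDM16 (ENSG00000142611, bases 3069168 to 3438621), a zinc-finger regulator of transcription known for its part in brown fat, was higher with adriamycin. It had 54 and 38 counts with etoposide and 90 and 105 with adriamycin, or 36.6 and 40.0 against 97.3 and 147 normalized counts. Control cells had 112 and 89.5, which overlapped adriamycin and lay above etoposide. With a log2 fold change of 1.66 ± 0.28 (edgeR adjusted p = 1.89e-07), PRDM16 was 3.17-fold higher with adriamycin than with etoposide. C1QTNF12 (ENSG00000184163, bases 1242446 to 1246722), which encodes the secreted adipokine adipolin, had 67.7 and 58.9 normalized counts with etoposide, 71.3 and 73.4 in control cells, and 143 and 113 with adriamycin. The difference was 1.01 ± 0.25 on the log2 scale (edgeR adjusted p = 0.000333), and across 4 other scalings it lay between 0.60 and 1.06. C1QTNF12 did not pass under each scaling, and its value was 0.87 without adriamycin replicate 1, within the threshold of 1.

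The control libraries lay between those of the drugs for 6 of the 10 called lower genes, below both drugs for TNFRSF14, and overlapped a drug for the other 3. Of all 23 genes that passed the test as lower, 11 had the control libraries between the drugs, 4 above both, 2 below both, and 6 overlapped a drug. Of the 20 that passed as higher, 9 had them between the drugs, 3 above both, 1 below both, and 7 overlapped a drug. The genes with control cells above both drugs were TP73, SKI, PRXL2B and UBE2J2 among lower genes, and PRKCZ, KLHL17 and DVL1 among higher ones. All these genes were selected for a difference between the drugs. The positions of the control libraries were not set against those for all tested genes.

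**Figure D2:**
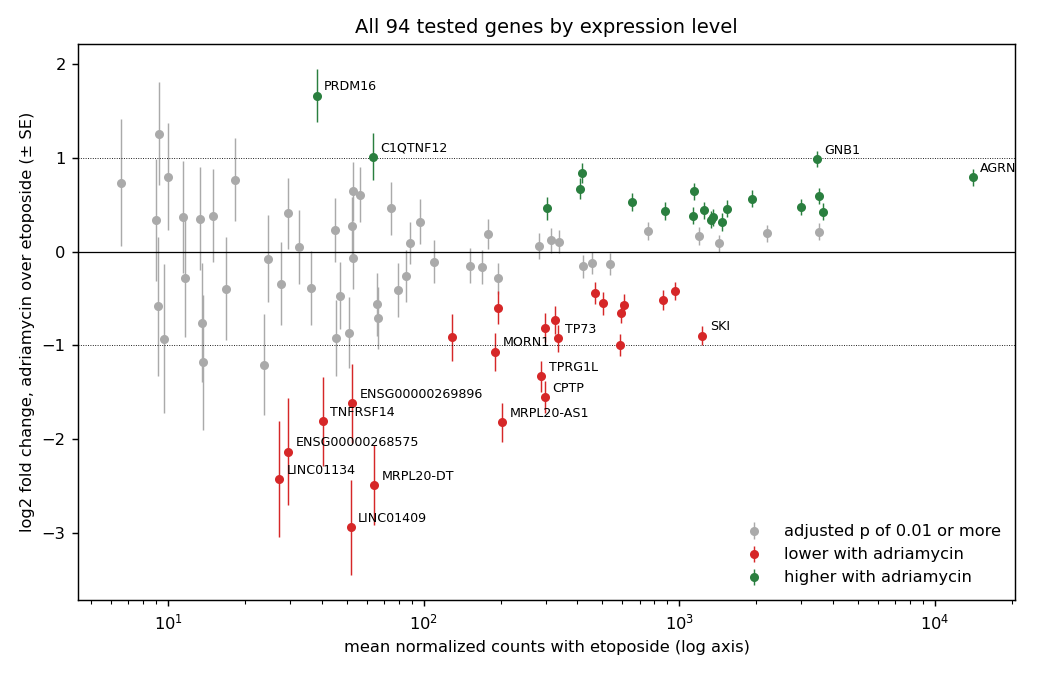
Log2 fold change of adriamycin over etoposide with its standard error, against the mean normalized count with etoposide on a log axis, for the 94 tested genes. Colours mark genes that passed the test as lower (23) or higher (20), and most genes higher with adriamycin lie to the right, among genes with many reads.

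The direction of the differences varied with the number of reads of a gene. Among the 31 genes with the most reads, 17 were higher and 7 were lower with adriamycin, with a median log2 fold change of 0.34. Among the 32 genes with the fewest reads, 0 were higher and 6 were lower, with a median of −0.39. TNFRSF14 and ENSG00000268575, among these lower genes, had enough counts to be tested only because of etoposide. For the 31 genes in between, 3 were higher and 10 were lower, with a median of −0.16. The median standard errors were 0.094, 0.19 and 0.50 from the most to the fewest reads, so a small difference could pass the test only in genes with many reads. Across the 94 genes, which are not independent replicates and share their libraries, the log2 fold change had a Spearman rho of 0.30 and a Pearson r of 0.32 with the log2 CPM of the gene. The same measures were 0.036 and 0.030 with the log10 gene length, 0.11 and 0.11 with the number of exons of the canonical transcript, and 0.056 and 0.087 with the GC content of the exons. The median gene length was 15152 bases for lower genes and 16163.5 bases for higher ones.

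Since part of each library was analysed, the scaling between libraries rested on these genes alone. With library size in place of TMM, the median of the log2 fold changes of the 94 genes shifted from −0.069 to −0.48, and 4 genes passed as higher and 33 as lower. All 23 lower genes passed under TMM, DESeq2's size factors, upper-quartile scaling, library size and library size without AGRN. Of the 20 higher genes, 4 passed under each of these scalings, namely PRDM16, GNB1, LINC02780 and AGRN. AURKAIP1, FAAP20, SSU72 and MRPL20 changed sign with library size alone. Every other gene described here as higher was higher under TMM, relative to the other genes analysed, but did not pass under each scaling.

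**Figure D3:**
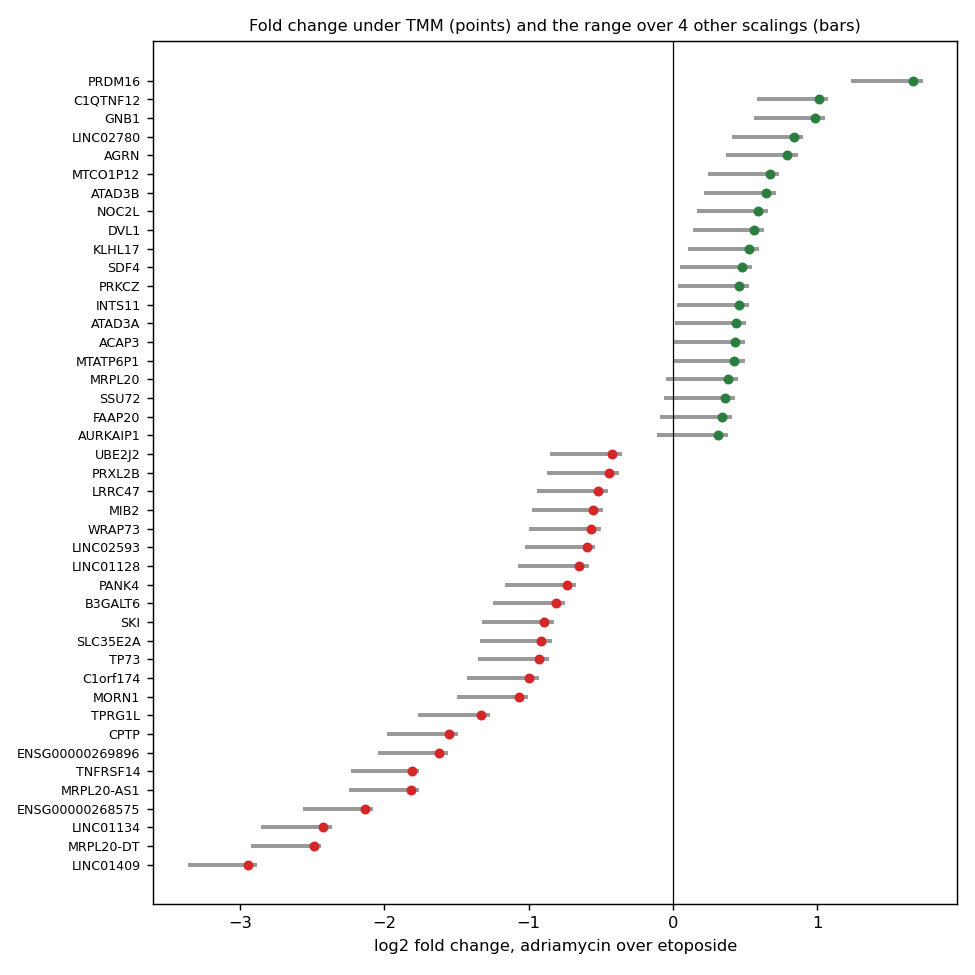
Log2 fold change of adriamycin over etoposide for the 43 genes that passed the test, with points for TMM scaling and grey bars for the range over 4 other scalings. Bars of all 23 lower genes stay below 0, and those of AURKAIP1, FAAP20, SSU72 and MRPL20 cross it.

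GNB1 (ENSG00000078369, bases 1785285 to 1892292), which encodes a beta subunit of heterotrimeric G proteins, had 3547 and 3366 normalized counts with etoposide and 6761 and 6918 with adriamycin. Control cells had 4800 and 5196, between the drugs. GNB1 changed by 0.98 ± 0.088 on the log2 scale (edgeR adjusted p = 1.25e-18), and the value ranged from 0.57 to 1.04 over the other scalings. AGRN (ENSG00000188157, bases 1020120 to 1056118) encodes agrin, a heparan sulfate proteoglycan of basement membranes, and took 21.1% to 29.0% of the counts of the 220 genes. It had 13253 and 14866 normalized counts with etoposide, 17843 and 17555 in control cells, and 24658 and 24028 with adriamycin. AGRN changed by 0.79 ± 0.091 on the log2 scale (edgeR adjusted p = 4.01e-13), again with control cells between the drugs. LINC02780 (ENSG00000284668, bases 3976133 to 4012704) was the lncRNA gene that passed as higher, with 441 and 396 normalized counts with etoposide and 771 and 729 with adriamycin. Control cells, at 765 and 795, overlapped adriamycin, and the log2 fold change was 0.84 ± 0.11 (edgeR adjusted p = 2.12e-11).

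Of the 26 tested lncRNA genes, 7 were lower (26.9%) and 1 was higher (3.85%), with a median log2 fold change of −0.40. The share of lower genes was close to the 24.5% of all tested genes. Of the 55 coding genes, 14 were lower (25.5%) and 17 were higher (30.9%), with a median of 0.10, and the median of all tested genes was −0.069. The difference between these classes was not tested, and most of the lncRNA genes had few reads. The other lower lncRNA genes were LINC01128, at 574 and 610 normalized counts with etoposide and 375 and 377 with adriamycin, and LINC02593, at 219 and 170 against 137 and 122. Of the 13 pseudogenes, 2 were lower and 2 were higher. Of the 46 tested genes whose exons overlap no other gene, 12 were lower and 9 were higher. Among these 46, MRPL20-DT, LINC01134, ENSG00000269896, CPTP and TPRG1L were called lower, and PRDM16 and C1QTNF12 were called higher. ENSG00000269896 lies inside MORN1 on the same strand, so its counts too could include reads of MORN1. Genes that passed outside these 46, among them GNB1, AGRN, NOC2L, DVL1, INTS11 and MIB2, have exons that overlap another gene. Part of the counts of those genes is uncertain.

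**Figure D4:**
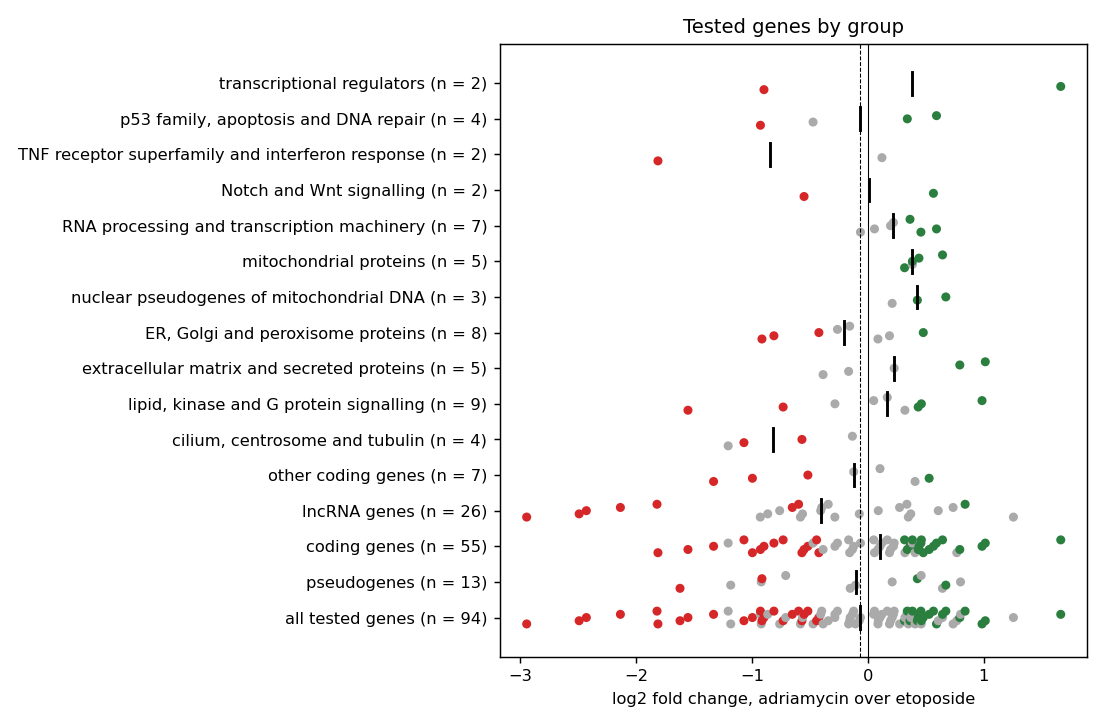
Log2 fold change of adriamycin over etoposide for the tested genes by gene group and gene class, with a line at each median and a dashed line at the median of all genes (−0.069). Red and green points passed the test as lower and as higher, grey ones did not pass, and the lncRNA genes hold 7 lower and 1 higher.

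The counts of the gene groups that follow stand beside 24.5% lower and 21.3% higher among all tested genes, and no group was tested against them. Among transcriptional regulators, of which 2 were tested, PRDM16 was higher and SKI was lower with adriamycin. SKI (ENSG00000157933), a co-repressor that binds SMAD proteins of the TGF-β pathway, had 1184 and 1283 normalized counts with etoposide and 659 and 665 with adriamycin. Control cells had 2141 and 2082, above both drugs. SKI changed by −0.90 ± 0.097 on the log2 scale (edgeR adjusted p = 2.93e-14).

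Of the 4 genes of the p53 family, apoptosis and DNA repair, TP73 was lower, NOC2L and FAAP20 were higher, and DFFB did not pass. TP73 (ENSG00000078900), a relative of p53, had 313 and 358 normalized counts with etoposide, 174.1 and 177.4 with adriamycin, and 441 and 454 in control cells. TP73 changed by −0.93 ± 0.14 on the log2 scale (edgeR adjusted p = 7.42e-09), and its exons overlap those of TP73-AS1 on the other strand. NOC2L, an inhibitor of histone acetyltransferases that binds p53, had a log2 fold change of 0.59 ± 0.087, but 0.18 under library size alone. FAAP20, a part of the Fanconi anaemia core complex, had 0.34 and −0.073 under library size alone. DFFB, the nuclease that cuts DNA in apoptosis, had a log2 fold change of −0.47 with a 95% interval of −1.17 to 0.23.

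Of the 2 tested genes of tumour necrosis factor receptors and the interferon response, TNFRSF14 was lower and ISG15, a ubiquitin-like protein induced by interferon, did not pass. ISG15 had 307 and 321 normalized counts with etoposide and 360 and 320 with adriamycin, a log2 fold change of 0.12 with a 95% interval of −0.14 to 0.38. In Notch and Wnt signalling, with 2 genes tested, MIB2 was lower and DVL1 was higher. MIB2, a ubiquitin ligase of Notch ligands, had 529 and 482 normalized counts with etoposide, 344 and 348 with adriamycin and 256 and 212 in control cells, which were below both drugs. MIB2 changed by −0.55 ± 0.12 on the log2 scale (edgeR adjusted p = 5.07e-05). DVL1, which transmits Wnt signals, had a log2 fold change of 0.56 ± 0.089, but 0.15 under library size alone.

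Of the 7 tested genes of RNA processing and the transcription machinery, 3 were higher (42.9%) and 0 were lower, with a median log2 fold change of 0.22. They were NOC2L, INTS11, the catalytic subunit of the Integrator complex, at 0.46, and SSU72, a phosphatase of the RNA polymerase II tail, at 0.36. None of the 3 passed under each scaling, and all 3 are among the 31 genes with the most reads, of which 17 were higher. CCNL2, CDK11B, CDK11A and PUSL1 did not pass, and CCNL2, a cyclin tied to RNA splicing, had 0.20 with a 95% interval of 0.021 to 0.37, but −0.21 under library size alone. Of the 5 tested genes of mitochondrial proteins, 4 were higher (80.0%) and 0 were lower, at 0.32 for AURKAIP1, 0.38 for MRPL20, 0.44 for ATAD3A and 0.64 for ATAD3B. These 4 are among the 31 genes with the most reads, of which 17 were higher. None of them passed under each scaling, and ATAD3A and ATAD3B are similar copies between which reads could be split. Of the 3 tested pseudogenes of mitochondrial DNA, MTATP6P1 and MTCO1P12 were higher, at 0.43 and 0.67, and neither passed under each scaling. Reads of these pseudogenes can be hard to tell from those of the mitochondrial genome.

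Of the 8 tested genes of the endoplasmic reticulum, Golgi and peroxisome, 3 were lower and 1 was higher. B3GALT6, a galactosyltransferase that builds the linker of glycosaminoglycan chains, had 313 and 282 normalized counts with etoposide and 179.5 and 159.2 with adriamycin, with control cells between them at 201 and 276. B3GALT6 changed by −0.81 ± 0.15 on the log2 scale (edgeR adjusted p = 2.68e-06). SLC35E2A, at −0.91, and UBE2J2, a ubiquitin-conjugating enzyme of the endoplasmic reticulum, at −0.42, were also lower. SLC35E2A is a pseudogene in the annotation, and its similar copy SLC35E2B, at −0.16, did not pass. SDF4, a calcium-binding protein of the Golgi, had a log2 fold change of 0.48, but 0.065 under library size alone. Of the 5 tested genes of the extracellular matrix and secreted proteins, AGRN and C1QTNF12 were higher and 0 were lower.

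Of the 9 tested genes of lipid, kinase and G protein signalling, CPTP and PANK4 were lower and GNB1, ACAP3 and PRKCZ were higher. PANK4, of the pantothenate kinase family, had 327 and 326 normalized counts with etoposide and 237 and 151 with adriamycin. Its log2 fold change of −0.73 became −1.07 without adriamycin replicate 1 and −0.45 without adriamycin replicate 2. PRKCZ, an atypical protein kinase C, had a log2 fold change of 0.46, and ACAP3, a GTPase-activating protein of Arf, had 0.43. Of the 4 tested genes of cilium, centrosome and tubulin, MORN1 and WRAP73 were lower and 0 were higher. WRAP73, a centrosomal protein, had a log2 fold change of −0.57 ± 0.11, and CFAP74 had −1.20 with an edgeR adjusted p of 0.0532. Of the 7 other coding genes tested, TPRG1L, C1orf174 and LRRC47 were lower and KLHL17 was higher. C1orf174 had 593 and 576 normalized counts with etoposide and 303 and 282 with adriamycin, a log2 fold change of −0.996, just within the threshold of 1.

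The ratio of the counts of a pair of genes within a library does not depend on the scaling, and it was used for the divergent pairs. Of 15 such pairs among the 220 genes, 6 had both genes tested, and in all 6 the ratios did not overlap between the drugs. All 6 hold at least 1 gene that passed the test between the drugs, so a separation of their ratios was likely beforehand. Over all 4186 pairs that can be formed of tested genes with a count in each drug library, 71.4% did not overlap, so such a separation was common whether or not genes were neighbours. The 4186 pairs also include pairs in which neither gene passed. With 2 libraries per group, the smallest p of an exact two-sided permutation test is 0.333, and no p is given for a ratio. At the INTS11 and CPTP pair, whose first bases are 69 bases apart, the log2 ratio of CPTP to INTS11 was −2.22 and −2.52 with etoposide, −4.20 and −4.60 with adriamycin, and −2.50 and −2.85 in control cells. CPTP was thus 4.07-fold lower relative to INTS11 with adriamycin than with etoposide. At the CCNL2 and MRPL20-AS1 pair, 180 bases apart, the log2 ratio of MRPL20-AS1 to CCNL2 was −3.25 and −3.63 with etoposide, −5.38 and −5.55 with adriamycin, and −3.00 and −3.12 in control cells. The difference between the drugs was 4.06-fold, and control cells were on the side of etoposide.

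At the SDF4 and B3GALT6 pair, 206 bases apart, the log2 ratio of B3GALT6 to SDF4 was −3.32 and −3.34 with etoposide and −4.59 and −4.65 with adriamycin, or 2.45-fold lower. At the MORN1 and RER1 pair, 68 bases apart, RER1, which returns proteins from the Golgi to the endoplasmic reticulum, gained on MORN1. The log2 ratio of RER1 to MORN1 was 2.99 and 2.82 with etoposide and 3.83 and 4.41 with adriamycin. RER1 itself did not pass the test, with a log2 fold change of 0.087 and a 95% interval of −0.093 to 0.27. Under library size alone it turned to −0.33 and passed as lower (edgeR adjusted p = 0.0015). At the C1orf174 and LINC01134 pair, 54 bases apart, both genes were lower, with a log2 ratio of LINC01134 to C1orf174 of −4.69 and −4.19 with etoposide and −5.81 and −6.07 with adriamycin. The ratio of the PRDM16 and PRDM16-DT pair, 77 bases apart, moved the most of the 6. The log2 ratio of PRDM16 to PRDM16-DT was −0.45 and −1.02 with etoposide, 1.21 and 1.71 with adriamycin and 1.46 and 1.12 in control cells, a 4.59-fold difference between the drugs. PRDM16-DT alone did not pass (log2 fold change −0.56, 95% interval −1.22 to 0.093).

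**Figure D5:**
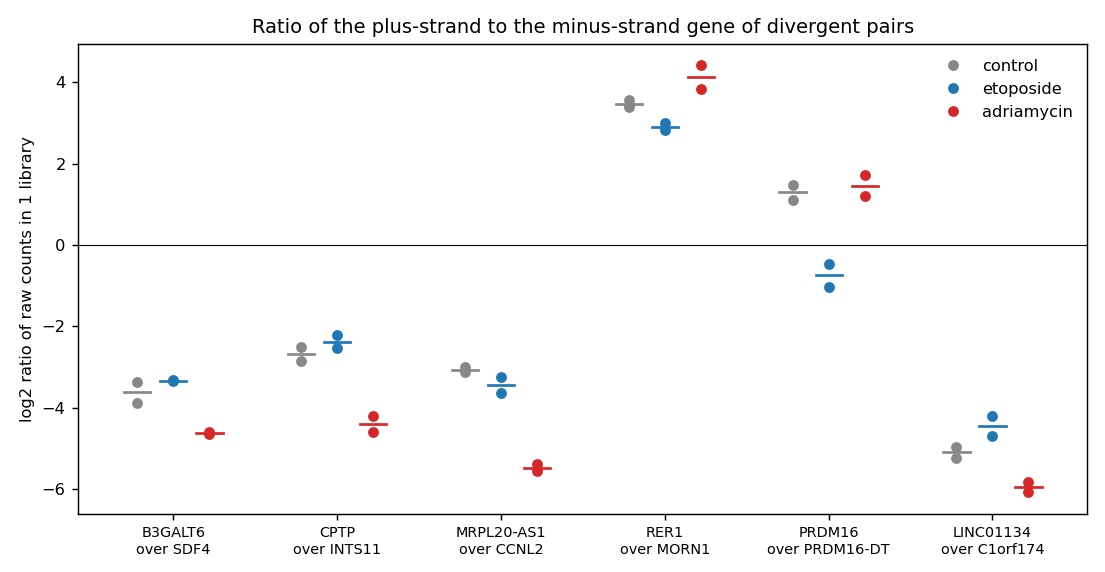
Log2 ratio of the raw counts of the plus-strand gene to those of the minus-strand gene within a library, for the 6 divergent pairs with both genes tested. Points are the 2 libraries of each group and lines their mean, and the adriamycin points lie apart from the etoposide points in all 6 pairs.

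Promoters were read from RefSeq (GRCh38.p14), as windows of 250 bases before and 50 bases after the start, for 51 of the 94 tested genes. The letters CCAAT, on either strand, were found in 10 of 17 promoters of lower genes (58.8%), in 3 of 14 of higher genes (21.4%) and in 5 of 20 of genes that did not pass (25.0%). Over all 27305 RefSeq promoters of this length, the share was 35.7%. The lower genes with a match were LINC01409, LINC01134, MRPL20-AS1, CPTP, TPRG1L, MORN1, C1orf174, B3GALT6, LINC02593 and PRXL2B. The higher genes with a match were AURKAIP1, INTS11 and SDF4, of which INTS11 and SDF4 share the boxes shown above with CPTP and B3GALT6. Windows of paired genes overlap and are not independent. The motifs were chosen after the values were seen, and no difference in these shares was tested. The GC box GGGCGG was found in 70.6% of promoters of lower genes, 78.6% of higher and 70.0% of those that did not pass. Over all promoters its share was 44.6%. The ETS core CCGGAA was found in 52.9%, 42.9% and 25.0%, in the same order, against 17.6% of all. The TATA box TATAAA was found in 0 of the 51 promoters, against 12% of all. The CRE letters TGACGTCA were found in 3, the E-box CACGTG in 5 and the palindromic NRF1 motif in 0 of the 51, against 1.98%, 7.43% and 1.36% of all. The median number of CG steps per window was 36 for lower, 42 for higher and 31 for other tested genes, and 14 over all promoters. Matches on both strands were counted, they describe letters, and binding was not measured here.

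When 1 library was left out, the lone library of its group was assumed to vary like the other groups. All 43 genes that passed the test kept their sign without each of the 4 drug libraries in turn, but many no longer passed. Without etoposide replicate 1, 5 genes passed as lower and 3 as higher, and 1 of the 10 lower calls, MRPL20-AS1, was among the 2 genes called lower. Without etoposide replicate 2, 5 genes were called lower and 12 passed as lower, and without adriamycin replicate 2 these numbers were 6 and 15. Without adriamycin replicate 1, 13 genes passed as higher. The genes that passed under every alternative computed were MRPL20-AS1, C1orf174, TP73, SKI and LINC01128, all lower, and AGRN, LINC02780 and GNB1, all higher.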

How the data were processed

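The samples are 6 RNA-Seq libraries of U2OS cells, grouped by the sample labels into control, adriamycin and etoposide with 2 each. The study calls its duplicates technical replicates. It describes separate cultures, each processed and sequenced on its own, for the Hi-C data of control and adriamycin cells. For the RNA-Seq libraries of any group the sources used here give no such description. The p-values measure the spread between these libraries, which may be technical. Messenger RNA was selected with poly-T beads. Per the study's methods, the authors aligned paired-end reads of 150 bp to GRCh38 with HISAT2 v2.1.0 and counted reads per Ensembl gene with featureCounts of Subread v2.0.0. The authors deposited raw counts, a whole number per gene and library. Strand and multi-mapping settings are not given in the sources used here. For the control and adriamycin libraries the analysis used the 220 to 292 genes at the start of the list, the rest was not analysed here, and the 4 incomplete last lines were dropped.

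The test was edgeR's quasi-likelihood test (version 4.0.16, R 4.3.3), with TMM normalization, edgeR's default filter and no replicate block. The study's own test was DESeq2, which was an alternative here (version 1.42.0). The thresholds are those of the study's methods. Intervals of 95% are the estimate plus or minus 1.96 standard errors. Other alternatives were 4 scalings, filters on low counts, the 4 drug libraries alone, leaving out each library, a replicate block and a looser threshold (adjusted p under 0.05). Gene names, exons and coordinates are from GENCODE release 44, which held all 220 genes. The members, the gene groups and the naming rule (called genes, the 10 genes on each side with the smallest p below the fold threshold, members of the groups, divergent pairs, AGRN) were chosen with earlier results of these data known. LINC02593 and PRXL2B, outside that rule, and the motifs were chosen after the values were seen. The fit was tested on simulated data. Python 3.11.15 with pandas 2.3.3, numpy 2.4.6 and scipy 1.17.1 made the tables.

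Replicate libraries were set against each other gene by gene, for the 75 genes that had 10 or more counts throughout. Their counts differed (binomial p under 0.05) in 34.7% of these genes with etoposide, 21.3% with adriamycin and 25.3% in control cells, so replicates differed by more than sampling noise.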

Additional observations from a re-analysis of the deposited data

How the results depend on the processing

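The numbers of genes changed with the scaling, the libraries left out and the test, against 10 genes called lower and 2 called higher, with 23 past the test as lower and 20 as higher. With library size alone, 21 genes were called lower and 1 higher, and 4 passed as higher. With library size without AGRN, 18 were called lower and 1 higher, and 9 passed as higher. These scalings moved the median log2 fold change by −0.41 and −0.28, and all 10 genes called lower stayed called. The number called higher was also 1 with upper-quartile scaling, with no filter, in a fit of the drug libraries alone, and under a minimum of 10 counts per library. Under that minimum, 75 genes were tested and 5 were called lower. When a library was left out, 1 to 3 genes were called higher, 2 to 10 called lower, 3 to 20 passed as higher and 5 to 23 as lower. The lowest counts came without etoposide replicate 1, and the cause was not tested. With library size alone, the log2 fold change was −0.098 for AURKAIP1, −0.073 for FAAP20, −0.049 for SSU72 and −0.030 for MRPL20. No other gene past the test changed sign under an alternative. With DESeq2's Wald test 3 genes were called higher and 8 lower, and 20 passed as higher and 17 as lower. The lower genes that no longer passed were TNFRSF14, ENSG00000268575, SLC35E2A, LINC02593, MIB2 and PRXL2B, with DESeq2 adjusted p from 0.0161 to 0.0729. Of 730 values of single genes under alternatives, 115 kept their direction but lost their call or no longer passed, and 6 of these still passed the test with a log2 fold change under 1 in size. Another 9 values, of CCNL2, RER1 and PRDM16-DT, moved by over 1 standard error. A replicate block changed no call, since the same 10 and 2 genes were called and the same 23 and 20 passed. Deviations of same-numbered adriamycin and etoposide libraries correlated at −0.0063 over 75 genes. This value cannot show whether same-numbered libraries were handled together. Low depth limits the lncRNA genes, several of which had under 10 counts with adriamycin.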

Other observations

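Members of the gene groups with too few counts to test gave no direction. The tumour necrosis factor receptor gene TNFRSF4 had 10 and 12 counts with etoposide and 9 and 3 with adriamycin. TNFRSF18 had 11 and 2 counts with etoposide and 11 and 1 with adriamycin. SMIM1, which encodes a small membrane protein of red blood cells, had 16 and 6 counts with etoposide and 5 and 1 with adriamycin. HES4, a relative of the Notch targets, had 4 and 1 counts with etoposide and 1 and 0 with adriamycin, and HES5 had 0 and 2 against 0 and 0. ENSG00000238260, the divergent partner of TPRG1L, had 6 and 1 counts with etoposide and 0 in both adriamycin libraries. The 12 miRNA genes had at most 9 counts in a drug library. Summed over the 126 untested genes, the etoposide libraries held 237 and 170 counts and the adriamycin libraries 132 and 64.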
